A study of Rattus norvegicus with 6 samples.

Results

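The 3 uncoupling protein genes of the rat array, Ucp1, Ucp2 and Ucp3, were taken as every probe set annotated to them, which gave 6 probe sets, 2 for each gene, on an array that measures 4736 genes by name. RNA of adrenal glands from SHR, the spontaneously hypertensive rat (3 samples), and from WKY, the normotensive Wistar-Kyoto rat (3 samples), had been hybridized to Affymetrix rat genome arrays of a single colour, with 1 array per sample. Both are inbred strains, and the labels name no treatment, age or sex for either group. Whether each sample stands for an animal of its own is not stated, so a p-value here measures only a spread between samples that may be technical. The 3 genes were singled out with their brightness and strain difference already known, so both are given as a description, with no p-value.

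Uncoupling proteins are carriers of the mitochondrial inner membrane and belong to the SLC25 family, whose members move metabolites, nucleotides and ions across that membrane. UCP1 lets protons return to the matrix without passing through ATP synthase, so that the energy of respiration is released as heat, and it is the defining protein of brown fat cells. UCP2 is made in many tissues, with high levels in spleen and macrophages, while UCP3 is found mainly in skeletal muscle and brown fat, and what these proteins carry is less settled than for UCP1. In rodents the fat around the adrenal gland and the kidney contains brown fat cells.

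The stretches of genome just before the 3 start sites are shown so that the members, which have unlike profiles over the arrays, can be compared where transcription starts. They come from RefSeq's GRCr8 assembly, hold the 250 bases before the annotated start and read 5′ to 3′ on the strand of the gene. The Ucp1 window lies at chr19:41721422-41721671 on the minus strand, the Ucp2 window at chr1:164251123-164251372 on the plus strand and the Ucp3 window at chr1:164227660-164227909 on the plus strand. Capitals mark matches, on either strand, to TATAAA (the TATA box), GGGCGG (a GC box), AGGTCA (the half-site of nuclear receptors such as the PPARs) and CANNTG (the E-box, bound by helix-loop-helix factors).
Ucp1: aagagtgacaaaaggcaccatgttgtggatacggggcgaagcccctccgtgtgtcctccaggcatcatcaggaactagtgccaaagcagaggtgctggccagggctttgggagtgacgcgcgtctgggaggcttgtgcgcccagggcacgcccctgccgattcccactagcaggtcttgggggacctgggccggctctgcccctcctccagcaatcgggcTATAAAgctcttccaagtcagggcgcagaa
Ucp2: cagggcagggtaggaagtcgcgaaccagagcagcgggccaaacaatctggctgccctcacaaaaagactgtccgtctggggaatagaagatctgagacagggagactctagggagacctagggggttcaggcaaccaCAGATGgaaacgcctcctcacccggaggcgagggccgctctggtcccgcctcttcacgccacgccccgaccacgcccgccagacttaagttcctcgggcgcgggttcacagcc
Ucp3: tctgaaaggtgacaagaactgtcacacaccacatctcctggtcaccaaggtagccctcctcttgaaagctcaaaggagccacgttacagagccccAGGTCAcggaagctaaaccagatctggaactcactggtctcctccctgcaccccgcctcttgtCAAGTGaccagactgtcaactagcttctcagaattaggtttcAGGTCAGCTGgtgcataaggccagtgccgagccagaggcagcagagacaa
Ucp1 held a single match, a TATA box 30 to 25 bases before the start, a motif present in 12.9% of 33469 RefSeq windows of the same length. Ucp2 held 1 E-box and no TATA box, and an E-box is present in 65.5% of the windows. Ucp3 held 2 nuclear receptor half-sites (14.1% of windows have at least 1) and 2 E-boxes, the E-box nearer the start overlapping a half-site. GC boxes, present in 30.5% of windows, were found in none of the 3. A match is a run of letters and no evidence of binding, and its absence says only that these letters are not in the window. Ucp3 and Ucp2 lie next to each other on chromosome 1 with 0 protein-coding genes between them, and Ucp1 lies on chromosome 19.

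The adrenal origin of the samples was checked on 14 cortex and medulla genes, of which 10 had a probe set. Star and Th are given as well known genes of the cortex and medulla and were chosen after their values were seen. Star, which brings cholesterol into mitochondria for steroid synthesis, averaged 74944 ± 17177 in SHR samples and 85421 ± 17100 in WKY samples (intensity, with SD and n = 3 each, as for all means below). Limma called 0 of the 10 higher and 1 lower in SHR, Dbh of the medulla, and 2 had an unadjusted p under 0.05, with 8 negative and a median log2 difference of -0.09. Pnmt, which makes adrenaline in the medulla, averaged 13549 ± 1568 in SHR arrays and 20127 ± 1115 in WKY arrays with no overlap, at a log2 difference of -0.57 ± 0.13 (limma adjusted p = 0.0764). Cyp21a1, the steroid 21-hydroxylase of the cortex, was at -0.56 ± 0.45 (limma adjusted p = 0.633). Th, the rate-limiting enzyme of catecholamine synthesis, averaged 12189 ± 2532 in SHR and 12284 ± 1604 in WKY. Hybridization runs were inferred from the clock times in the instrument settings, split at gaps over 60 minutes, and no label names them. So split, SHR replicate 1 and the 3 WKY arrays shared a run, and SHR replicates 2 and 3 formed another. The ratio of 3′ to 5′ signal of the hexokinase control, which rises as RNA degrades, was 4.21 for SHR replicate 2, the other arrays lying at 1.96 to 2.54. The same ratio of the GAPDH control was 0.95 for SHR replicate 2, inside the range of the other arrays, 0.90 to 1.14. Median intensity ran from 798.3 to 899.5 over the 6 arrays.

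Ucp2 was the member that separated the strains. Its signal was among the strongest on the array, at percentile 97.0 (AB010743_at) and 93.8 (AB005143_s_at) of mean signal, a place that reflects the probes as well as the amount of transcript. Its probe set AB010743_at read 18412, 15631 and 15843 in SHR replicates 1 to 3, against 35183, 36104 and 39164 in WKY replicates 1 to 3. The second, AB005143_s_at, read 7507, 7634 and 6829 in SHR, against 15344, 22460 and 20077 in WKY. In both probe sets every SHR array lay below every WKY array, with a gap wider than the spread within either strain. The mean of AB010743_at was 16629 ± 1548 in SHR and 36817 ± 2084 in WKY, so SHR stood at 45.2% of the WKY level. For AB005143_s_at the means were 7324 ± 433 in SHR and 19294 ± 3622 in WKY, a ratio of 38.0%. On the log2(intensity + 181.5) scale the differences, SHR minus WKY, were -1.14 ± 0.11 (SE) and -1.36 ± 0.16. The added constant shrinks differences of dim probe sets and hardly alters those at this brightness. In whole glands fewer cells of a type and less RNA per cell cannot be told apart.

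Of the 6 probe sets, 5 passed the filter on dim probe sets and 2, both of Ucp2, had arrays that did not overlap between strains, a separation that 20.7% of tested probe sets showed (10.5% with SHR lower). The same 2 were among the 102 of 5244 tested probe sets (1.95%) that limma called at an adjusted p under 0.05, of which 46 (0.877%) were lower and 56 (1.07%) higher in SHR. Since these values picked out the genes, nothing is read from either count. As a description of size, 72 of the 5244 had a lower log2 difference than AB010743_at, and 0 of those 72 were as bright on average. Of the 44 with a lower difference than AB005143_s_at, 2 were as bright. Replicate arrays agreed closely on AB010743_at, with a pooled SD within a strain of 0.11 (log2), and 7.46% of tested probe sets had a smaller SD. They agreed less on AB005143_s_at, with an SD of 0.21, and 35.5% had a smaller one. The median was 0.26 over the tested probe sets, which include far dimmer ones.

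**Figure D1:**
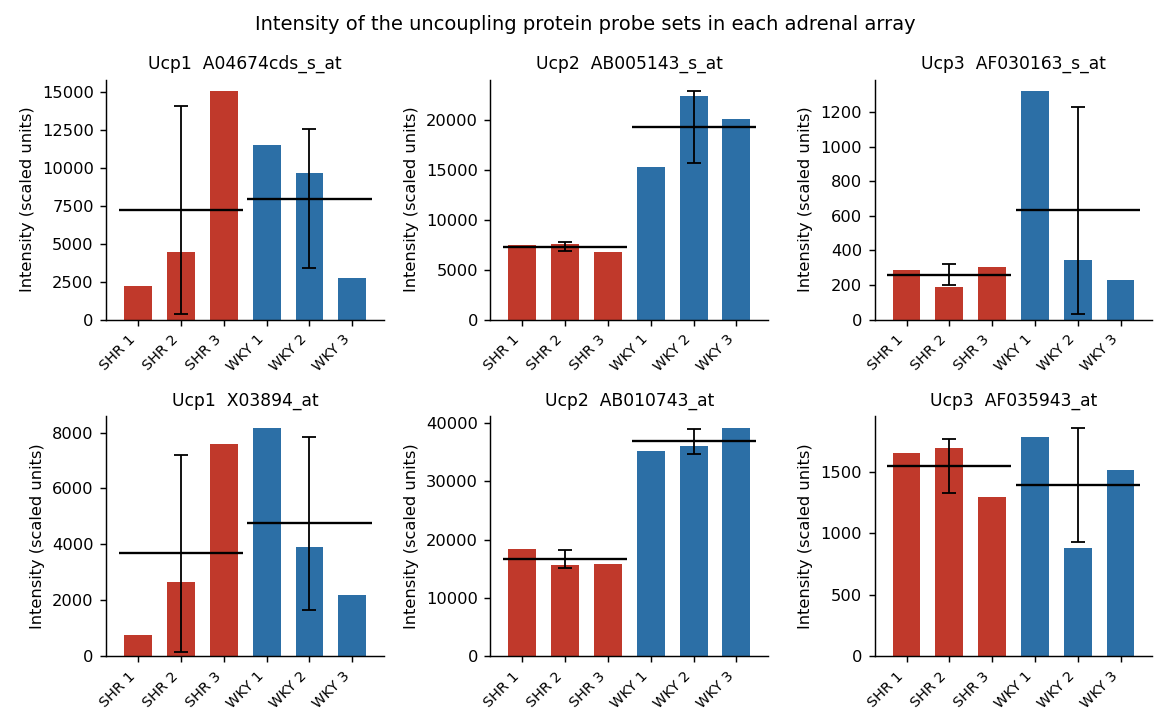
Deposited intensity (y axis, scaled units, from 0) of the 6 uncoupling protein probe sets in each array (x axis, SHR red, WKY blue), with the strain mean as a horizontal line and its SD as an error bar (n = 3 each). Both Ucp2 probe sets are lower in every SHR array than in any WKY array, both Ucp1 probe sets vary several-fold within each strain, and the Ucp3 probe set AF030163_s_at is high in WKY replicate 1.

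**Figure D2:**
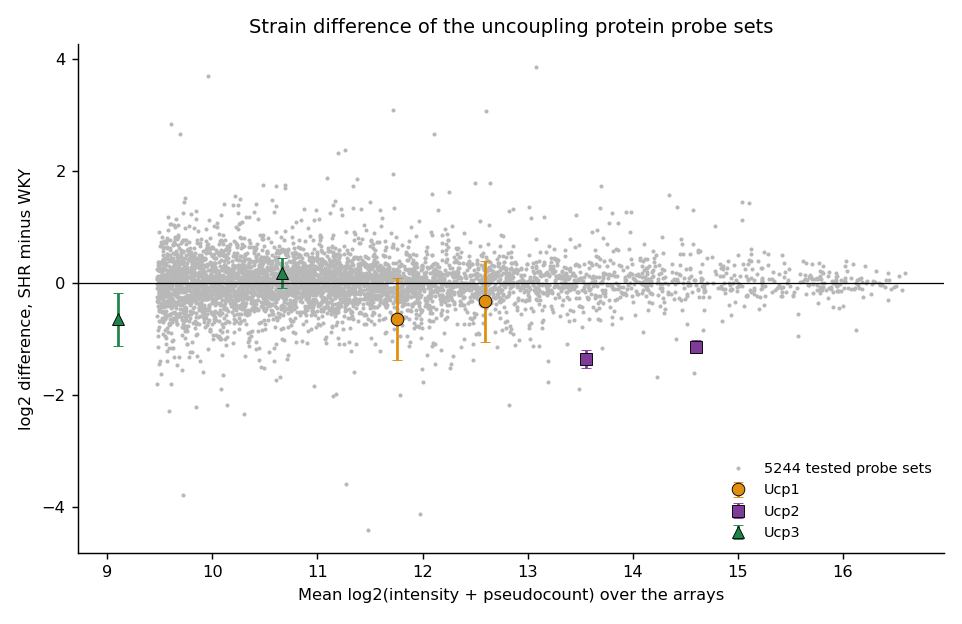
Log2 difference, SHR minus WKY (y axis), against mean log2(intensity + pseudocount) over the 6 arrays (x axis) for the 5244 tested probe sets in grey and the uncoupling protein probe sets in colour, with the SE of the difference as error bars. Ucp2 sits far below the cloud at high brightness, Ucp1 has wide error bars, and the dim Ucp3 probe set lies left of the filter.

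Leaving out any 1 array moved the Ucp2 differences little, from -1.22 to -1.10 for AB010743_at and from -1.51 to -1.24 for AB005143_s_at. SHR replicate 1 set against the WKY arrays of its own hybridization run gave -0.99 and -1.32. The other run has no WKY array to compare with. SHR replicate 2, with the high hexokinase ratio, gave the lowest of the SHR values on AB010743_at and the highest on AB005143_s_at.

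The genes whose profile over the 6 arrays was nearest to that of AB010743_at were Lgals3, Col1a2, Itga1, Xdh and Dbh. Nearness was the root mean square difference between log2 profiles centred on their own means, and it ran from 0.12 to 0.16 where the Ucp2 profile itself had a root mean square of 0.58. Lgals3, which encodes the lectin galectin-3, abundant in macrophages, read 1506, 1307 and 1659 in SHR, against 3391, 3385 and 3374 in WKY. Itga1, a collagen-binding integrin subunit, averaged 2756 ± 205 in SHR and 6285 ± 642 in WKY. Xdh, the xanthine dehydrogenase, averaged 3638 ± 504 in SHR and 7496 ± 911 in WKY. Dbh, which makes noradrenaline from dopamine, averaged 2513 ± 67.8 in SHR and 6425 ± 877 in WKY, and Col1a2, a fibrillar collagen chain, 2744 ± 544 in SHR and 5518 ± 156 in WKY. Each of the 5 was lower in SHR by about as much as Ucp2 and had close replicates, which is what this measure of nearness selects. With 1 array left out limma still called Dbh in 6 of 6 fits, Itga1 in 5 (not without SHR replicate 2) and Lgals3, Xdh and Col1a2 in 1 each, and with the run as a block none of the 5 was called.

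Ucp1, in contrast, had levels that spread widely within each strain and overlapped between them. A04674cds_s_at read 2197, 4468 and 15049 in SHR replicates 1 to 3, against 11472, 9626 and 2770 in WKY replicates 1 to 3. X03894_at read 772, 2669 and 7595 in SHR, against 8171, 3891 and 2181 in WKY. Both probe sets thus put SHR replicate 3 highest and SHR replicate 1 lowest among the SHR arrays, and WKY replicate 1 highest and WKY replicate 3 lowest among the WKY arrays. The highest SHR array exceeded the lowest 6.85-fold and 9.83-fold on the 2 probe sets, and within WKY the ratios were 4.14 and 3.75. The pooled SD within a strain was 1.23 and 1.25 (log2), and 99.6% of tested probe sets had a smaller SD than either. The probe sets stood at percentiles 88.2 and 80.1 of mean signal. Mean intensities were 7238 ± 6859 in SHR and 7956 ± 4585 in WKY for A04674cds_s_at, and 3679 ± 3522 in SHR and 4748 ± 3085 in WKY for X03894_at.

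With such spread the strain difference of Ucp1 had no settled sign. It was -0.33 ± 0.72 and -0.64 ± 0.73 (log2, SE) over all arrays, and 0.27 and 0.13 without SHR replicate 1. Without WKY replicate 1 the values were 0.04 and -0.17. Within the first hybridization run, where SHR replicate 1 is the SHR array, they were -1.55 and -2.18.

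The genes nearest to the Ucp1 profile were Ghr, Cav1, Ddit3, Srpx and G0s2, at root mean square differences of 0.45 to 0.56 (log2, 6 arrays) where the Ucp1 profile had 1.01. Cav1, the main protein of caveolae and plentiful in fat cells, read 266, 835 and 1331 in SHR, against 2006, 780 and 356 in WKY. G0s2, an inhibitor of the fat cell lipase ATGL, read 151, 216 and 974 in SHR, against 1202, 966 and 564 in WKY. Ddit3, a stress-induced transcription factor, read 349, 410 and 807 in SHR, against 1642, 879 and 211 in WKY. Those 3 genes and Srpx were highest in the same SHR array and the same WKY array as Ucp1, as nearness to its profile favours. Ghr, the growth hormone receptor and the nearest of the 5, read 502, 1683 and 2547 in SHR, against 3272, 3789 and 401 in WKY, and so was highest in WKY replicate 2. Srpx averaged 781 ± 497 in SHR and 585 ± 285 in WKY.

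Fat cell genes, of which 24 of 33 listed had a probe set and 21 were tested, showed how far this pattern was shared. SHR replicate 3 was the highest SHR array and WKY replicate 1 the highest WKY array, as for Ucp1, in 10 of the 21, and in 8.46% of the 3144 genes tested. That pair of arrays was taken from the Ucp1 values after they were seen. Fabp4, the fatty acid binding protein of fat cells, read 1599, 2729 and 4573 in SHR, against 16168, 8507 and 3869 in WKY, and so ranked the arrays within each strain exactly as Ucp1 did. Scd, the stearoyl-CoA desaturase, chosen after its values were seen, read 4059, 5636 and 8484 in SHR, against 25442, 15775 and 5215 in WKY, again in the order of Ucp1 within each strain. Other genes of the list ran opposite to Ucp1 within SHR. Lipe, named after its values were seen, read 12616, 9690 and 7889 in SHR replicates 1 to 3, and Pparg read 1350, 828 and 341. Between strains the Fabp4 and Scd signals of SHR replicate 3 were below those of WKY replicates 1 and 2. Ucp1 parted from them on A04674cds_s_at, where SHR replicate 3 was the highest of all arrays. On X03894_at SHR replicate 3, at 7595, was below WKY replicate 1, at 8171, and above WKY replicate 2, at 3891.

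Of the 21 fat cell genes limma called 0 higher and 2 lower in SHR, 16 had a negative difference, and their median difference was -0.39, beside 24 of 3144 genes lower, 51.6% negative and a median of -0.01 over all tested genes. Medag, linked to fat cell formation, fell to 257 ± 108 in SHR, against 1851 ± 578 in WKY (log2 difference -2.21 ± 0.30, limma adjusted p = 0.0123). Cfd, the protease adipsin secreted by fat cells, fell to 1613 ± 376 in SHR, against 7471 ± 3580 in WKY (-2.00 ± 0.35, limma adjusted p = 0.0324). Without WKY replicate 1 neither was called (0.0592 for Medag and 0.0755 for Cfd, limma adjusted p), and Cfd was called in 1 of the 6 fits without 1 array. With the run as a block neither was called either (0.201 for Medag and 0.319 for Cfd, limma adjusted p). Fabp4 was at -1.52 ± 0.52 and did not pass (limma adjusted p = 0.235). Lep gave 3 probe sets, at 0.00, 0.04 and -0.66, and Lpl, the lipoprotein lipase, gave 3, at 0.38, -0.54 and -0.03. No value in the table was at 0, and no detection call was used here.

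Summed over the 24 fat cell genes, intensity was 94781, 93429 and 94080 in SHR replicates 1 to 3, against 174180, 122385 and 91624 in WKY replicates 1 to 3. The sum adds raw intensities of unlike probes, and bright genes that were level over the arrays weigh most in it. An example is Lep, whose brightest probe set averaged 17195 ± 1059 in SHR and 17136 ± 832 in WKY. Its other probe sets were far dimmer, at 344 ± 78 in SHR and 332 ± 109 in WKY (under the filter), and at 696 ± 405 and 1159 ± 516. Medag and Cfd, the genes called, were lower in every SHR array than in any WKY array, WKY replicate 3 included. The part of fat tissue in the Ucp1 and Ucp2 values was not tested.

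**Figure D3:**
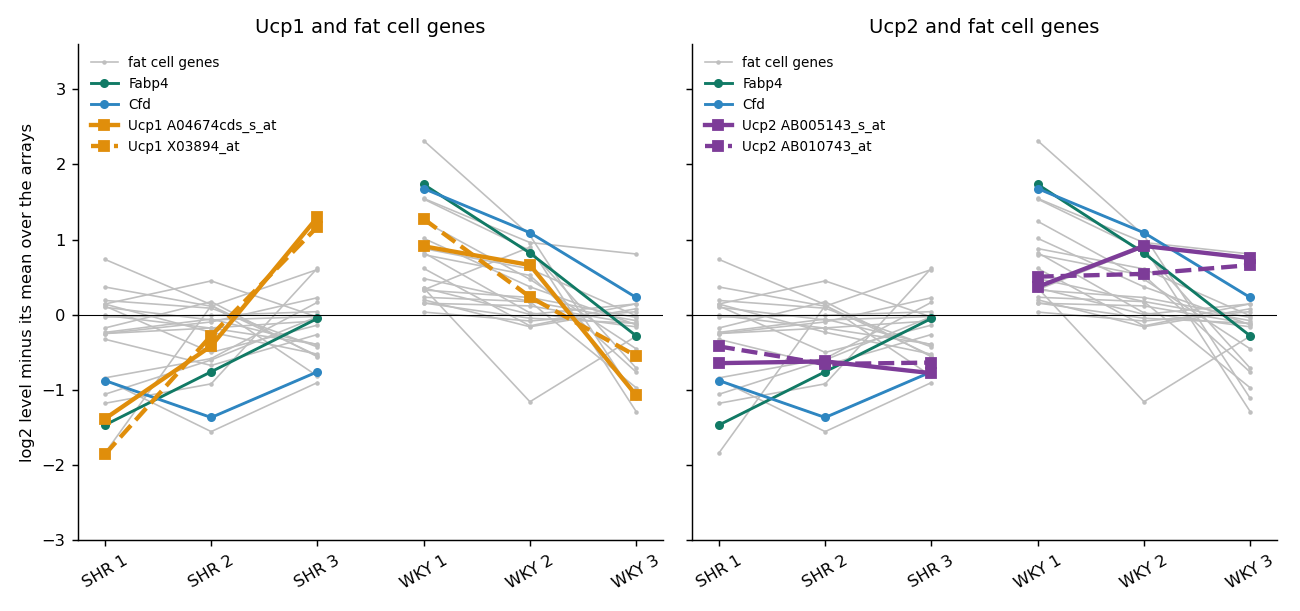
Log2 level minus its mean over the 6 arrays (y axis) in each array (x axis) for the 21 tested fat cell genes in grey, with Fabp4 and Cfd in colour, beside the 2 probe sets of Ucp1 on the left and of Ucp2 on the right. Lines join values of the same probe set within a strain and imply no order among replicates. Ucp1 is highest in SHR replicate 3 and WKY replicate 1, as Fabp4 and Cfd are within each strain, while both Ucp2 probe sets are lower in every SHR array than in any WKY array.

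Genes of thermogenic fat other than the uncoupling proteins gave 0 calls by limma among 6 tested genes, and 0 at an unadjusted p under 0.05, with a median difference of -0.07. Of 25 listed genes 9 had a probe set, and no probe set named Ppargc1a. Among the 6, 3 were highest in SHR replicate 3 and WKY replicate 1, as Ucp1 was. These were Cox8b, named after its values were seen, a cytochrome oxidase subunit of heart, muscle and brown fat, Cpt1b, the carnitine palmitoyltransferase of muscle and brown fat, and Fabp3, the heart-type fatty acid binding protein. The brighter Cpt1b probe set read 2885, 2971 and 3670 in SHR, against 4734, 4293 and 2963 in WKY, which is the order of Ucp1 within each strain. The other Cpt1b probe set read 848, 636 and 1035 in SHR, against 2316, 1643 and 161 in WKY, with another order among the SHR arrays and a much wider spread within WKY. Cidea, a lipid droplet protein of brown fat, read 1737, 2188 and 1999 in SHR, against 5801, 3208 and 2091 in WKY (-0.74 ± 0.33, limma adjusted p = 0.367). Adrb3, the receptor through which noradrenaline drives brown fat, read 1903, 1093 and 380 in SHR, against 1884, 2018 and 302 in WKY (-0.19 ± 0.66, limma adjusted p = 0.936). Adrb3 was thus lowest among the SHR arrays in the array where Ucp1 was highest. Dio2, the deiodinase that activates thyroid hormone in brown fat, was under the filter, at 362 ± 196 in SHR and 163 ± 135 in WKY.

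Ucp3 gave modest signals, at percentile 62.9 (AF035943_at) and 32.2 (AF030163_s_at), that overlapped between strains. AF035943_at read 1658, 1695 and 1296 in SHR, against 1785, 880 and 1519 in WKY, with a mean of 1550 ± 221 in SHR and 1395 ± 465 in WKY. The log2 difference was 0.17 ± 0.26, or -0.09 without WKY replicate 2. AF030163_s_at read 287, 189 and 303 in SHR, against 1321, 346 and 228 in WKY. It lay under the filter, whose threshold corresponds to an intensity of 529.7, and the fit without a filter gave -0.65 ± 0.47. Its high value was WKY replicate 1 alone, and without that array the difference was -0.09. The 2 Ucp3 probe sets disagreed in sign, and both placed WKY replicate 1 highest of the 6 arrays.

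Sncg, the gamma-synuclein gene of nerve and fat cells, was chosen after its values were seen and lay under the filter. Like AF030163_s_at it was highest in WKY replicate 1, at 140, 120 and 121 in SHR, against 2069, 404 and 230 in WKY. That array was also the highest WKY array in 19 of the 21 tested fat cell genes. In the largest list, the respiratory chain and ATP synthase, it was so in 13 of 28 tested genes. The share over all tested genes was not counted. The tested genes nearest to AF035943_at were Atp5pb, Ebp, Fblim1, Cyp24a1 and Rph3al, at root mean square differences of 0.10 to 0.12 (log2, 6 arrays) where the Ucp3 profile had 0.30. Atp5pb, a subunit of ATP synthase, read 19002, 18406 and 15940 in SHR, against 20614, 9812 and 19772 in WKY, with the same low value in WKY replicate 2. Ebp, a sterol isomerase of cholesterol synthesis, averaged 1460 ± 104 in SHR and 1370 ± 356 in WKY.

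Skeletal muscle, a main site of Ucp3, was followed through 22 measured genes, of which 12 were tested and 0 were called by limma (2 at an unadjusted p under 0.05), with a median difference of 0.02. Ckm, the muscle creatine kinase, read 974, 420 and 763 in SHR, against 934, 403 and 409 in WKY. Myh1, a fast myosin heavy chain, was at 1.16 ± 0.29 (limma adjusted p = 0.105). Car3, a carbonic anhydrase of slow muscle and fat, read 3253, 2831 and 2603 in SHR, against 12163, 6161 and 4216 in WKY (-1.19 ± 0.34, limma adjusted p = 0.147). Casq1, the calcium store protein of fast muscle, was at 0.42 ± 0.20 (limma adjusted p = 0.410). The summed level of the 22 genes ran from 26252 to 30430 in SHR and from 26135 to 32980 in WKY. Without WKY replicate 1 limma called 1 of the 12.

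Leukocytes, in which Ucp2 is plentiful, gave 0 calls by limma among 12 tested genes of 21 measured, 2 at an unadjusted p under 0.05 and a median difference of -0.12. C1qb, a complement chain made by macrophages, averaged 1025 ± 438 in SHR arrays and 2184 ± 412 in WKY arrays with no overlap, at a log2 difference of -1.02 ± 0.28 (limma adjusted p = 0.137). Cd37 and Cd5, surface proteins of lymphocytes, were at -0.84 ± 0.35 and -0.68 ± 0.33 (limma adjusted p = 0.331 and 0.406). Of the 12, 9 had a negative difference. Others of the list, named after their values were seen, were C1qc at -0.13, Lyz2 at -0.06 and Cd14 at -0.10. Cd79b and Cd8b were positive, at 0.98 and 0.53. The summed level of the 21 genes ran from 22459 to 25837 in SHR and from 23960 to 37108 in WKY. The part of leukocytes in the Ucp2 difference was not tested.

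Fibroblast and capsule matrix genes had summed levels that, like Ucp2, were lower in every SHR array than in any WKY array. Of 16 tested, limma called 0 higher and 5 lower in SHR, beside 28 higher and 24 lower of all 3144 tested genes. The median difference was -0.51, and 12 of the 16 were negative. Sparc and Mgp, the brightest of the list, named after their values were seen, were at 0.09 ± 0.11 and 0.30 ± 0.14 (limma adjusted p = 0.756 and 0.404). The summed level over 17 measured genes ran from 106676 to 125031 in SHR and from 144169 to 155516 in WKY. Col3a1 was at -1.78 ± 0.25, Col1a2 at -0.98 ± 0.17 and Col5a1 at -0.81 ± 0.14, all fibrillar collagen genes (limma adjusted p = 0.0130, 0.0302 and 0.0302), and the others called, named after their values were seen, were Col1a1 and Fn1. The calls depended on which arrays were used, with 0 of the 16 called without WKY replicate 1 or without WKY replicate 2, 1 without SHR replicate 2, SHR replicate 3 or WKY replicate 3, and 3 without SHR replicate 1. With the run as a block 0 were called. The part of matrix cells in the Ucp2 difference was not tested. Endothelial genes gave 0 calls by limma among 6 tested (0 at an unadjusted p under 0.05), with Flt1 at 0.31, Kdr at -0.19 and Thbd at -0.25. Kidney genes gave 0 among 7 (2 at an unadjusted p under 0.05), with Slc22a6 at -0.74, Aqp1 at 0.45 and Slc34a1 at -0.30.

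Among other carriers of the SLC25 family no gene was called. Of 37 listed 12 were tested, 0 were called by limma and 2 had an unadjusted p under 0.05, with a median difference of 0.11. Slc25a11, the oxoglutarate carrier, was at 0.35 ± 0.14, and Slc25a20, which brings acylcarnitines into the matrix, at 0.33 ± 0.14 (limma adjusted p = 0.306 and 0.345). Slc25a5, an ADP/ATP carrier, was at -0.34 ± 0.17 (limma adjusted p = 0.430). Slc25a14, also known as brain mitochondrial carrier protein and close to the uncoupling proteins in sequence, was at 0.38 ± 0.29 and 0.45 ± 0.43 on its 2 probe sets. No probe set named Slc25a27, also called Ucp4.

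Receptors, kinases and factors that act on uncoupling protein genes also gave 0 calls by limma, among 22 tested of 33 listed, with 3 at an unadjusted p under 0.05 and a median difference of -0.06. Ppara, a fatty acid receptor, read 998, 1254 and 926 in SHR, against 795, 1025 and 234 in WKY (0.65 ± 0.39, limma adjusted p = 0.515). Pparg, the fat cell receptor of the same family, was at 0.04 ± 0.60 (limma adjusted p = 0.988). The genes of smallest p were Prkar2b and Prkaca, subunits of protein kinase A, at 0.67 ± 0.20 and -0.56 ± 0.20, and Usf2, an E-box factor, at 0.45 ± 0.19 (limma adjusted p = 0.162, 0.264 and 0.329).

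**Figure D4:**
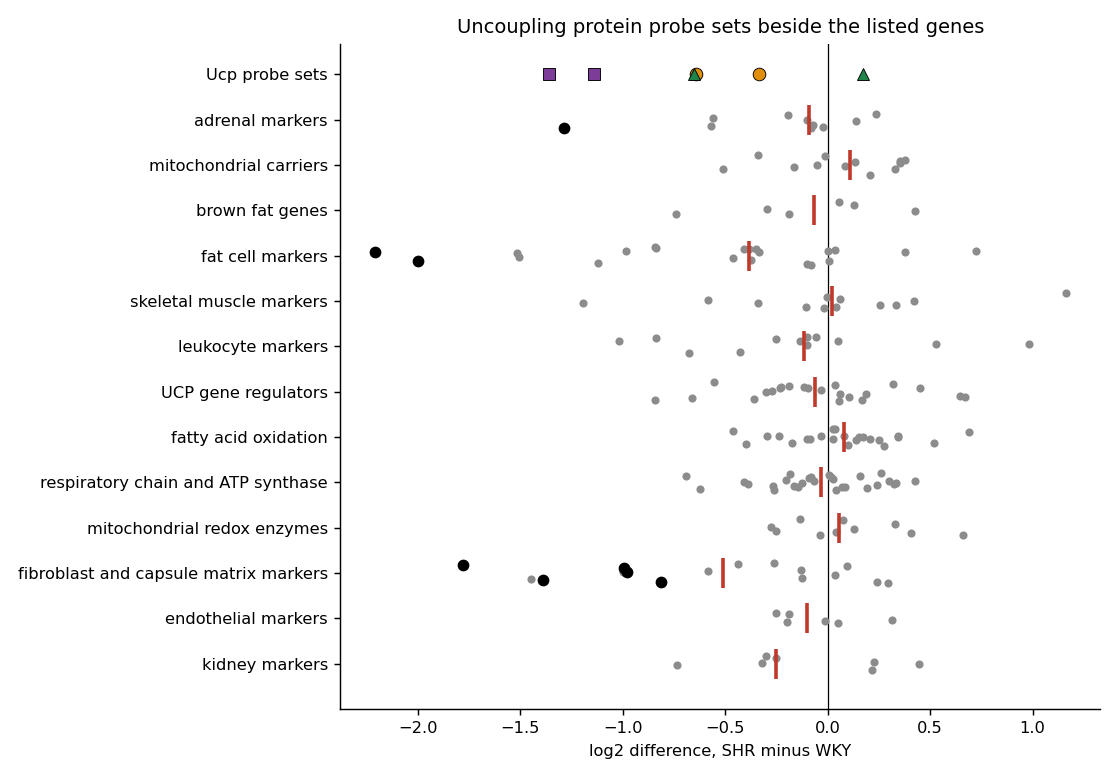
Log2 difference, SHR minus WKY (x axis), for the 6 uncoupling protein probe sets in the top row (orange circles Ucp1, purple squares Ucp2, green triangles Ucp3) and the tested genes of 13 lists below (grey, or black where limma's adjusted p was under 0.05), with the list median as a red bar. Both Ucp2 probe sets lie left of every carrier, regulator, oxidation and respiratory chain gene shown.

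The mitochondrial pathways around the uncoupling proteins showed no call by limma. Of 23 tested genes of fatty acid oxidation 0 were called and 4 had an unadjusted p under 0.05, with a median difference of 0.08. Decr1, which removes double bonds from fatty acids, was at 0.69 ± 0.18, Cpt2 at 0.52 ± 0.17 and Acaa2, the thiolase of the last step, at 0.34 ± 0.12 (limma adjusted p = 0.127, 0.222 and 0.236). When the probe sets of a gene were averaged, 1 was called. Of 28 genes of the respiratory chain and ATP synthase 0 were called and 3 had an unadjusted p under 0.05, with a median of -0.03. Atp5if1, the inhibitor of ATP synthase, was at -0.69 ± 0.19, Ndufb8 of complex I at -0.41 ± 0.14 and Cox7b of complex IV at -0.39 ± 0.14 (limma adjusted p = 0.132, 0.237 and 0.280). Of 10 redox enzymes, listed as mitochondrial although catalase is chiefly peroxisomal, 0 were called and 3 had an unadjusted p under 0.05. These were Cat, the catalase, at 0.66 ± 0.23, Txn2, the mitochondrial thioredoxin, at 0.33 ± 0.10, and Gpx4, which reduces lipid peroxides, at -0.25 ± 0.10 (limma adjusted p = 0.249, 0.167 and 0.295).

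Tested genes nearest to the uncoupling protein genes on their chromosomes were chosen by position alone, after the data had been seen, and none was called. They lie up to 36 genes from Ucp2 and Ucp3 and up to 76 genes from Ucp1 in RefSeq's order. Of the 5 nearest tested genes on each side of Ucp3 and Ucp2, 0 of 10 were called by limma and 1 had an unadjusted p under 0.05, with differences from -0.54 to 0.27 (log2). The lowest was that of Gucy2e, a guanylate cyclase 33 genes away, at 2298 ± 245 in SHR and 3442 ± 536 in WKY. The nearest were Pold3, a DNA polymerase subunit 7 genes away on the Ucp3 side, at 0.27 ± 0.18, and Rab6a, a Golgi GTPase 4 genes away on the Ucp2 side, at 0.00 ± 0.18. On both sides of Ucp1, 0 of 10 were called and 1 had an unadjusted p under 0.05, the corticosterone-inactivating enzyme gene Hsd11b2, 60 genes away, which averaged 12321 ± 1804 in SHR arrays and 8792 ± 1566 in WKY arrays (0.48 ± 0.17, limma adjusted p = 0.258).

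**Figure D5:**
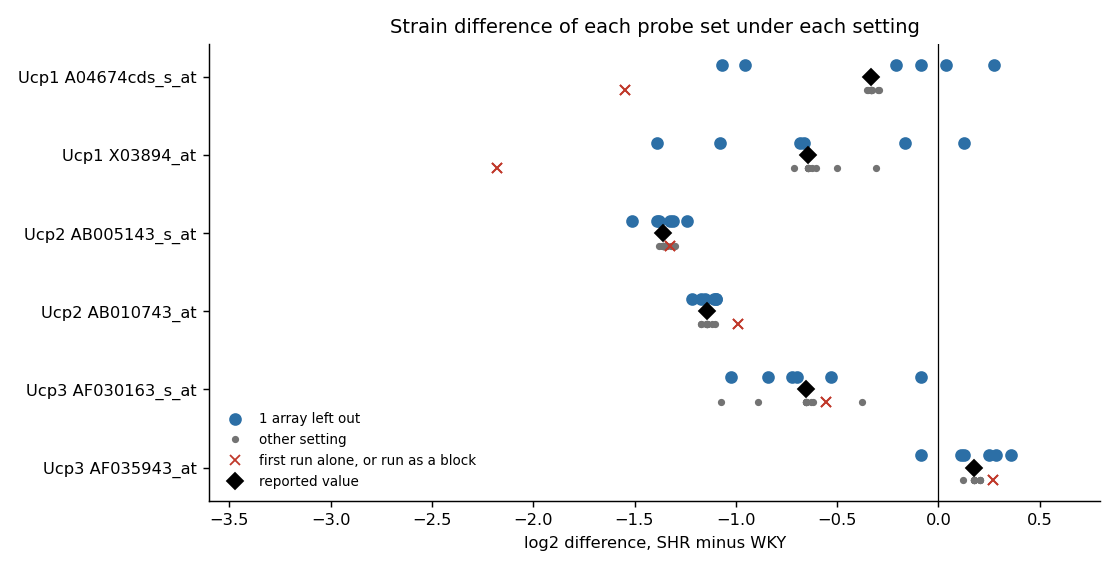
Log2 difference, SHR minus WKY (x axis), of each probe set as reported (black diamond), without 1 array (blue), in the first hybridization run alone or with the run as a block (red crosses, which coincide) and under the other settings (grey). Ucp2 stays between -1.51 and -0.99 throughout, while Ucp1 runs from -2.18 to 0.27.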

How the data were processed

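The authors deposited linear intensity values, 1 for each probe set in each array, already scaled to a common level (mean after trimming 2% at each end about 2504 in every array). Which expression algorithm was used, and its version, is not stated in the labels or file headers. A settings file per array, deposited by the authors and written by the instrument software (other values: module and order of runs), gave the hybridization times. Runs were inferred from the hour and minute, without the date, and split at gaps over 60 minutes.

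Probe sets were named from the platform annotation, with symbols checked through RefSeq's GRCr8 gene table. Of 8799 probe sets 59 controls were left out. To each value 181.5, the 20th percentile of positive values, was added before log2, and the 5244 of 8740 probe sets with a mean above the 40th percentile were tested with limma 3.58.1 in R 4.3.3 (lmFit, eBayes with trend, no covariate, two-sided, Benjamini-Hochberg over the 5244, threshold 0.05). The brightest tested probe set stood for a gene. Genes were named by a fixed rule: the 3 genes of smallest p in each list, a set list of fat, muscle and carrier genes, and the 5 profiles nearest each member. Chromosome neighbours were added later, by position, and others are marked as chosen after their values were seen. Members and lists were chosen with earlier results of these data known.

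The fit was tested on 10 simulated tables, each with 200 of 5244 probe sets changed. It called 7% of those changed by 0.5 (log2), 46.6% of those changed by 1 and 85% of those changed by 2. Of its calls 4.51% were false. The simulated noise was independent between arrays and between probe sets, with no effect of run, so this share need not hold in the real data. A list with 0 calls is thus not shown to be unchanged. Alternatives changed the scaling, pseudocount, filter, moderation, blocks, arrays used and the probe set per gene. The small number of arrays limits the precision of every value.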

Additional observations from a re-analysis of the deposited data

How the results depend on the processing

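Under the 18 alternatives both Ucp2 differences kept their sign, as did AF030163_s_at of Ucp3, while both Ucp1 probe sets and AF035943_at of Ucp3 changed sign when 1 array was left out. Without 1 array the log2 difference ran from -1.07 to 0.27 and from -1.39 to 0.13 for Ucp1 (A04674cds_s_at and X03894_at), from -1.51 to -1.24 and from -1.22 to -1.10 for Ucp2 (AB005143_s_at and AB010743_at), and from -1.02 to -0.09 and from -0.09 to 0.36 for Ucp3 (AF030163_s_at and AF035943_at). With the hybridization run as a block, or in the first run alone, X03894_at stood at -2.18 and AB010743_at at -0.99, both resting on SHR replicate 1. The median over all tested probe sets stayed between -0.03 and 0.04 in every setting. The number of probe sets called, 102, was 60 without the intensity trend, 46 with the fluidics module as a block, 20 when the run was the block, 1 within the first run and 38 to 59 without 1 array. The blocks and left-out fits also have fewer arrays or residual degrees of freedom, and what lowered the number in each was not tested. The 2 Ucp2 probe sets were among those called under 15 (AB005143_s_at) and 16 (AB010743_at) of the 18 alternatives, and under neither use of the run. AB005143_s_at was also not called with the fluidics module as a block. Since the genes were picked with these values known, and the alternatives reuse the same arrays, nothing is read from either count. Whether replicate numbers pair the samples is not stated. Arrays of the same number correlated at 0.0009 to 0.071 in their deviations from the strain means, which cannot exclude a pairing. With the replicate block 53 were called, and 1 of 3 SHR arrays correlated best with its own number. The intensities carry no depth, and signal over background was not used here.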
